A study of Arabidopsis thaliana with 20 samples.

Results

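SWI3B nucleosomes inside differentially methylated region (DMR) windows are the nucleosomes that the authors list as stabilized by SWI3B and that lie near a site where a DNA methyltransferase mutant differs from wild type in methylation. The authors' list gives 4089 such nucleosomes in leaves of Arabidopsis thaliana. A nucleosome was kept when its midpoint lay inside a window of 1100 bp (a DMR of 100 bp with 500 bp on each side) of any of the 9 window sets, which are the CG, CHG and CHH DMRs of drm2, met1 and cmt3 (H stands for any base but G). This held for 326 of the 4089 nucleosomes (7.97%), and the other 3763 lay outside every window.

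The series held 20 libraries from leaves of 3.5-week-old plants of the Columbia background, 14 of histone H3 chromatin immunoprecipitation after micrococcal nuclease digestion (MNase) and 6 of whole-genome bisulfite sequencing. Methylation was given for the wild type, Col-0, and for nrpe1 and swi3b, and H3 coverage in the windows was given for Col-0 and the methyltransferase mutants drm2, met1-3 and cmt3. Each genotype had 2 replicates. The deposited tables combine both replicates, so no difference between genotypes has a replicate check, no test was run and no p-value is given. Where a value was also taken per chromosome, the lowest and highest of the 5 chromosomes stand beside it as a description.

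A nucleosome is a stretch of DNA wrapped around histones, and its place is set in part by ATP-driven remodelling complexes of the SWI/SNF type, of which SWI3B is a subunit. In RNA-directed DNA methylation, RNA polymerase V, whose largest subunit is NRPE1, makes noncoding transcripts at silenced loci, and these guide the methyltransferase DRM2 to methylate cytosines, mostly in the CHH context. MET1 copies CG methylation after replication and CMT3 maintains CHG methylation. MNase spares DNA covered by nucleosomes, so the number of H3-bound fragments over a base reports how often a nucleosome was found there. Bisulfite converts unmethylated cytosines, and the share left unconverted is the methylation level.

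Most of the 326 nucleosomes lay near met1 or drm2 DMRs. Windows of met1 held 217 of them, drm2 windows 171 and cmt3 windows 11. Counted over their sets there were 52937 met1, 23882 drm2 and 5125 cmt3 windows. For their number, drm2 windows thus held more nucleosomes than met1 windows, and cmt3 windows fewer. Windows can overlap, and a preference for a mutant was not tested. By set, 130 lay in met1 CHH windows, 127 in drm2 CG windows, 104 in met1 CG windows, 47 in drm2 CHH windows and 15 in met1 CHG windows. In that order these sets have 19712, 15257, 28608, 6480 and 4617 windows. The other 4 sets held between 3 and 6 nucleosomes each. A single set accounted for 241 nucleosomes, and 2 nucleosomes were in 5 sets. Windows of met1 alone held 152, windows of drm2 alone 100, and windows of both but not of cmt3 held 63.

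The nucleosomes were spread over the genome. Their share of all listed nucleosomes ran from 6.66% on chromosome 1 (73 of 1096) to 10.5% on chromosome 2 (63 of 602). The median distance between a midpoint and the nearest DMR centre was 268.5 bp, and 49 midpoints (15.0%) lay in a 100 bp DMR itself. Neighbouring members were a median of 232305 bp apart, although 10 members overlapped an earlier one. At the edge of the rule, the 24 members more than 500 bp from the DMR centre had a mean Col-0 level of 0.0734%, and the 32 nucleosomes up to 50 bp outside a window had 0.668%.

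Gene positions came from the RefSeq annotation of TAIR10.1, matched to the coordinates in the tables, whose build is TAIR10 per the submitters' processing notes. The midpoint lay in a protein-coding gene for 212 of the 326 nucleosomes (65.0%), against 2867 of 3763 outside the windows (76.2%). It lay in no annotated gene for 100 (30.7%), against 784 outside (20.8%). Pseudogenes held 12 (3.68%), against 49 outside (1.30%). Nucleosomes that the authors list as stabilized by Pol V number 690, and 7 of the 326 (2.15%) overlapped one of them, against 8 outside the windows (0.213%).

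Methylation was low at most of these nucleosomes and high at a few. Each nucleosome was given the average level of those cytosines in its 200 bp that had one. In Col-0 the mean was 1.67% over the 304 nucleosomes with a level, and 188 of them were at 0. A level of at least 5% was found at 24. Those 24 held 91.8% of the summed Col-0 level, and the 10 highest held 58.4%. The mean was 0.432% in nrpe1 (301 nucleosomes) and 1.25% in swi3b (308 nucleosomes).

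Outside the windows the means were 0.115% in Col-0, 0.0708% in nrpe1 and 0.0955% in swi3b. The Col-0 level was thus 1.55 points higher inside, and between 0.935 and 2.18 points higher on the 5 chromosomes, and 2.46 points higher over the whole 1200 bp. DMRs are called on methylation, so a higher level near them is close to what chose the nucleosomes, and this difference is a description only. At least 5% in Col-0 was reached by 24 nucleosomes inside and by 19 of the far larger number outside.

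The highest Col-0 level belonged to a nucleosome at chr5:10214523-10214722, between AT5G28237 and AT5G28288, in drm2 CHH and met1 CHH windows. It was 67.9% over 21 cytosines, and only 3 cytosines had a level in nrpe1 and 1 in swi3b, all at 0. Without this nucleosome the Col-0 mean was 1.45%. Comparisons between genotypes were therefore made on the cytosines that had a level in both genotypes. The number of reads behind a level was not used here, so no interval can be given for it.

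In nrpe1, methylation was lower than in Col-0. Over the 286 nucleosomes with shared cytosines, Col-0 averaged 1.43% and nrpe1 0.503%. The difference of -0.93 points ran from -1.42 to -0.144 on single chromosomes. It was -0.490 points with each cytosine weighing the same, and -1.44 points over the whole 1200 bp. Of these nucleosomes, 92 had less methylation in nrpe1, 45 had more and 149 were at 0 in both. A drop of at least 5 points was seen at 14 nucleosomes (4.90%), against 0.676% of all 3700 SWI3B nucleosomes with shared cytosines. A rise of that size was seen at 1 (0.350%, against 0.0541%). A drop of 5 points needs a Col-0 level of at least 5%. Over all cytosines, 24 of 304 nucleosomes reached that level inside the windows and 19 of 3603 outside. The difference outside the windows was -0.0424 points.

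A few nucleosomes carried much of this difference. Without the nucleosome between AT5G28237 and AT5G28288, whose shared cytosines number 3, the difference was -0.754 points. Without the nucleosomes that overlap a Pol V nucleosome it was -0.633 points, and without both it was -0.453 points.

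In swi3b, methylation was also lower than in Col-0, by less. Over 292 nucleosomes Col-0 averaged 1.22% and swi3b 0.948%. The difference of -0.277 points ran from -0.635 to -0.104 on single chromosomes. Of these nucleosomes, 83 had less methylation in swi3b, 61 had more and 148 were equal. A drop of at least 5 points was seen at 6 nucleosomes (2.05%, against 0.371% of all 3778 SWI3B nucleosomes with shared cytosines). A rise of that size was seen at 1 (0.342%, against 0.0529%). Here, too, a drop of 5 points needs a Col-0 level of at least 5%. Without the nucleosomes that overlap a Pol V nucleosome, the difference was -0.274 points. Few nucleosomes weighed on this mean too, since the median difference was 0. Among nucleosomes with at least 10 cytosines shared by all genotypes, the 3 largest decreases were -17.7, -10.7 and -7.18 points.

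On the cytosines that all 3 genotypes share, 280 nucleosomes gave means of 1.27% in Col-0, 0.432% in nrpe1 and 0.947% in swi3b. The order Col-0, swi3b, nrpe1 held for the mean on 4 of the 5 chromosomes. On chromosome 1 the mean was 1.23% in Col-0, 1.03% in nrpe1 and 1.01% in swi3b. On chromosome 3 it was 1.39% in Col-0, 0.0772% in nrpe1 and 0.623% in swi3b. The choice of windows used no methylation value of nrpe1 or swi3b, but both mutants are set against the same Col-0 values.

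Of the 280, 20 had a Col-0 level of at least 5%. Their mean was 16.4% in Col-0, 5.42% in nrpe1 and 11.8% in swi3b. Each mutant was below Col-0 at 18 of the 20, and nrpe1 was below swi3b at 14. A level under 1% was found at 6 in nrpe1 and at 1 in swi3b. Because these 20 were picked for a high Col-0 value, a lower value in another library is partly built into that choice. The split is given as a description. The same choice outside the windows gave 15 nucleosomes, with means of 17.1% in Col-0, 7.96% in nrpe1 and 11.8% in swi3b. There nrpe1 was below Col-0 at 13 and swi3b at 12, so lower values in the mutants were not particular to the windows.

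**Figure D1:**
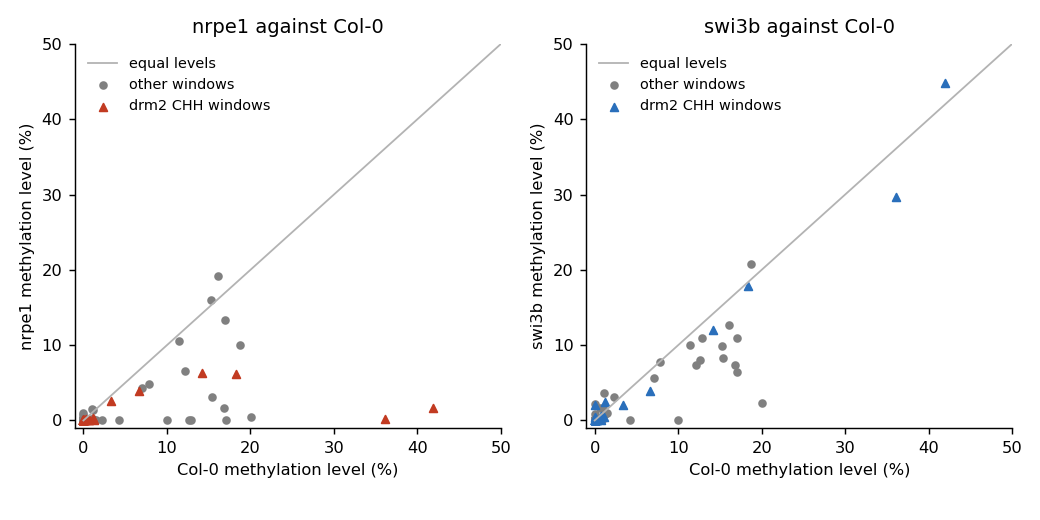
Methylation level (%) of the nucleosomes inside DMR windows in nrpe1 (left) and swi3b (right), each against Col-0, over the cytosines that all 3 genotypes share. A point is 1 of 280 nucleosomes, triangles lie in drm2 CHH windows and the grey line marks equal levels. The nucleosomes at 41.9% and 36.1% in Col-0 sit near 0 in nrpe1 and at 44.9% and 29.6% in swi3b.

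The level differed by window set. At nucleosomes in drm2 CHH windows, where loss of DRM2 changes CHH methylation, the mean over all cytosines with a level was 6.31% in Col-0 (40 nucleosomes), 0.539% in nrpe1 (39) and 4.77% in swi3b (40). On the cytosines shared with nrpe1, Col-0 averaged 5.08% and nrpe1 0.630% (35 nucleosomes, -4.45 points). Chromosomes ran from -7.32 to 0.415 points, so the sign was not the same on all of them. On the cytosines shared with swi3b, Col-0 averaged 3.74% (34 nucleosomes) and swi3b differed by -0.138 points, with chromosomes from -1.34 to 0.307.

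The nrpe1 difference in drm2 CHH windows also rested on few nucleosomes. It was -3.08 points without the nucleosome between AT5G28237 and AT5G28288, -2.44 points without the Pol V overlaps, and -0.915 points without both. Among single cytosines in these windows, 8.96% of 904 were methylated at 20% or more in Col-0. That share was 1.18% of 848 in nrpe1 and 8.12% of 924 in swi3b. These counts are not limited to shared cytosines, and few nucleosomes weigh on them. The nucleosome between AT5G28237 and AT5G28288 gave 21 cytosines in Col-0, at a mean of 67.9%, but 3 in nrpe1 and 1 in swi3b. Another, between AT4G19500 and AT4G19510, gave 17 in Col-0, all at 29.5% or more. The shares were not recomputed without these nucleosomes.

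The other large sets had lower Col-0 levels than the drm2 CHH windows taken whole. That rank rested on few nucleosomes. Without the nucleosome between AT5G28237 and AT5G28288 and the Pol V overlaps, Col-0 averaged 1.55% in drm2 CHH windows on cytosines shared with nrpe1 (32 nucleosomes). The other sets were not recomputed in this way. On cytosines shared with nrpe1, the 91 nucleosomes in met1 CG windows averaged 2.69% in Col-0 and 0.995% in nrpe1. On those shared with swi3b, 92 averaged 2.69% in Col-0 and 2.23% in swi3b. In met1 CHH windows the nrpe1 comparison gave 2.14% for Col-0 and 0.413% for nrpe1 (108 nucleosomes), and the swi3b comparison 1.62% for Col-0 and 1.15% for swi3b (110). In drm2 CG windows these were 0.726% and 0.302% (121), and 0.803% and 0.457% (122). The 6 nucleosomes in cmt3 CHG windows differed from Col-0 by -0.844 points in nrpe1 (6.65% to 5.81%) and by -4.41 points in swi3b (9.08% to 4.67%). Sets share nucleosomes, since 85 of the 326 lie in more than 1 set.

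Methylation also differed with the gene context. On the cytosines shared by all genotypes, the 200 nucleosomes in protein-coding genes had means of 0.399% in Col-0, 0.119% in nrpe1 and 0.253% in swi3b. The 66 in no annotated gene had 3.15% in Col-0, 0.494% in nrpe1 and 2.44% in swi3b. The 11 in pseudogenes had 6.19% in Col-0, 5.87% in nrpe1 and 4.87% in swi3b (a nucleosome in both a pseudogene and another gene is counted here). The nrpe1 level was thus well below Col-0 between genes and close to it in pseudogenes. Outside genes, few nucleosomes carried much of this. On cytosines shared with nrpe1 the difference there was -2.98 points (70 nucleosomes), and -1.08 points without the nucleosome between AT5G28237 and AT5G28288 and the Pol V overlaps (64 nucleosomes).

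The 20 nucleosomes with at least 5% in Col-0 belong to those just described, and were split by location after the values were seen. For the 11 in no gene, the mean was 17.6% in Col-0, 2.66% in nrpe1 and 13.5% in swi3b. For the 4 in protein-coding genes it was 17.0%, 3.99% and 10.1%, and for the 5 in pseudogenes 13.3%, 12.6% and 9.48%. In nrpe1, 0 of the 5 pseudogene nucleosomes fell under 50% of the Col-0 level, against 4 of 4 in protein-coding genes and 7 of 11 in no gene. The 11 in no gene include 3 that overlap a Pol V nucleosome. Those 3 averaged 30.2% in Col-0, 0.597% in nrpe1 and 27.5% in swi3b.

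Levels differed with distance to the DMR as well. The 40 nucleosomes with shared cytosines and a midpoint within 50 bp of a DMR centre had means of 4.23% in Col-0, 0.581% in nrpe1 and 3.29% in swi3b. From 50 to 200 bp the means were 1.51%, 0.803% and 1.02% (61 nucleosomes). From 200 to 400 bp they were 0.294%, 0.0943% and 0.182% (95 nucleosomes). Beyond 400 bp they were 0.788%, 0.474% and 0.645% (84 nucleosomes).

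Within the 1200 bp around these nucleosomes, methylation was lower over the nucleosome than farther out. In Col-0 the mean over nucleosomes was 1.67% on the nucleosome, 2.10% in the adjacent 200 bp on each side and 3.23% in the outer 300 bp on each side. Comparing the nucleosome with the outer 300 bp in the same 302 places, the means were 1.66% and 2.92%. The nucleosome was the lower of the pair at 160 and the higher at 76. In nrpe1 the nucleosome and outer means were 0.436% and 0.637% (298 places), and in swi3b they were 1.25% and 2.52% (306 places).

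The 43 places whose midpoint lay in a DMR itself went the other way. There the Col-0 mean was 6.97% on the nucleosome and 1.81% in the outer 300 bp, with the nucleosome higher at 25 and lower at 11. Few nucleosomes carried much of this mean. Over all 45 nucleosomes in a DMR with a Col-0 level it was 6.78%. Without the nucleosome between AT5G28237 and AT5G28288 and the Pol V overlaps it was 2.94% (41 nucleosomes). The outer mean was not recomputed. At the 259 places in a window but not in a DMR, the means were 0.777% and 3.11%. Where the DMR falls within the 1200 bp thus moves with this contrast. Outside the windows the Col-0 means were 0.114% on the nucleosome and 0.173% in the outer 300 bp.

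**Figure D2:**
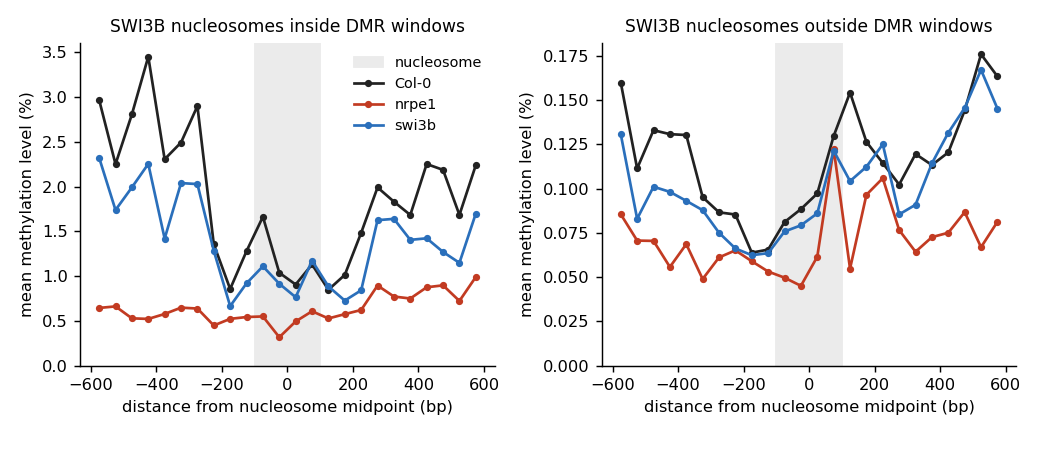
Mean methylation level (%) of all cytosines in bins of 50 bp against distance from the nucleosome midpoint (bp), in Col-0, nrpe1 and swi3b, for nucleosomes inside (left, 326) and outside (right, 3763) DMR windows. The grey band is the 200 bp nucleosome, and the vertical scales differ. Inside the windows nrpe1 lies below Col-0 in all 24 bins and swi3b in 22.

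The nucleosomes with the highest Col-0 level among the 233 with at least 10 shared cytosines are described singly. The highest lay at chr4:10633363-10633562 between AT4G19500 and AT4G19510, in a drm2 CHH DMR, and shared 196 bp with a Pol V nucleosome. Over 17 cytosines it averaged 41.9% in Col-0, 1.62% in nrpe1 and 44.9% in swi3b. Single cytosines ran from 29.5% to 61.1% in Col-0 (median 40.8%), from 0 to 2.63% in nrpe1 (median 1.92%) and from 21.9% to 63.5% in swi3b (median 45.0%). All 17 were lower in nrpe1 than in Col-0, and the ranges of those genotypes did not overlap. In swi3b 6 were lower than in Col-0 and 11 higher.

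The next lay at chr5:8446258-8446457 between LSU2, a gene of the low-sulfur response, and EMB2820, which encodes a tRNA adenosine deaminase. It was also in a drm2 CHH DMR and shared 196 bp with a Pol V nucleosome. Over 14 cytosines it averaged 36.1% in Col-0, 0.170% in nrpe1 and 29.6% in swi3b. In nrpe1, 13 of the 14 cytosines were at 0, while none was at 0 in Col-0 or swi3b. The lowest Col-0 cytosine was at 20% and the highest nrpe1 cytosine at 2.38%. H3 coverage over these nucleosomes was low, with 2.94 fragments per base in Col-0 at the first and 3.99 at the second. In drm2 it was 0 at both, and in met1-3 it was 3.13 and 1.03 after scaling.

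A nucleosome at chr3:15796058-15796257, in the protein-coding gene AT3G44006, was low in both mutants. It was in 5 window sets and in a met1 CHH DMR. Over 14 cytosines it averaged 20.04% in Col-0, 0.478% in nrpe1 and 2.38% in swi3b, and 13 of the 14 were lower than Col-0 in each mutant. This was the largest swi3b decrease among these nucleosomes, at -17.7 points.

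The swi3b decreases that followed were at chr3:11534828-11535027 between AT3G29680 and AT3G29690, and at chr3:129143-129342 in AT3G01345. The first had 17.1% in Col-0, 0 in nrpe1 and 6.41% in swi3b over 16 cytosines. In nrpe1 all 16 cytosines were at 0. The other had 15.4% in Col-0, 3.08% in nrpe1 and 8.24% in swi3b over 18 cytosines. Its H3 coverage was high, at 40.1 fragments per base for Col-0 and a scaled value of 28.2 for drm2. All 3 of the largest swi3b decreases were on chromosome 3.

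A nucleosome in AT2G13770 at chr2:5737288-5737487, in drm2 CHH and met1 CG windows, was lower in nrpe1 and close to Col-0 in swi3b. Over 25 cytosines it averaged 18.3% in Col-0, 6.13% in nrpe1 and 17.8% in swi3b. All 25 cytosines were lower in nrpe1 than in Col-0. In swi3b 15 were lower and 10 higher.

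Among these 233 nucleosomes, the largest nrpe1 increase was at chr1:9009843-9010042, in the pseudogene AT1G25784. Over 37 cytosines it averaged 16.1% in Col-0, 19.2% in nrpe1 and 12.7% in swi3b. Single cytosines ran from 0 to 85.3% in Col-0 and from 0 to 92.9% in nrpe1, so these ranges overlapped over nearly their whole length. Of the 37 cytosines, 18 were lower in nrpe1. Over the whole 1200 bp the nrpe1 difference was -0.0567 points. The next largest increase, in AT2G17920 at chr2:7784093-7784292, was from 0 to 1.03% over 15 cytosines, 12 of which were at 0 in nrpe1.

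Among the same 233 nucleosomes, the largest swi3b increases were under the 5 points used for a call. The first was the nucleosome between AT4G19500 and AT4G19510, at 2.95 points. The other was in the transcribed pseudogene AT2G10990 at chr2:4340203-4340402, with 1.13% in Col-0, 1.38% in nrpe1 and 3.61% in swi3b over 21 cytosines. With fewer shared cytosines, larger rises were found after the values were seen. In nrpe1 the nucleosome at chr5:13370233-13370432, between AT5G35110 and AT5G35120, went from 4.44% in Col-0 to 22.2% over 3 cytosines. In swi3b that at chr2:9556443-9556642, between the cyclin gene CYCD2;1 and UCP5, went from 5.13% to 18.6% over 4 cytosines.

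**Figure D3:**
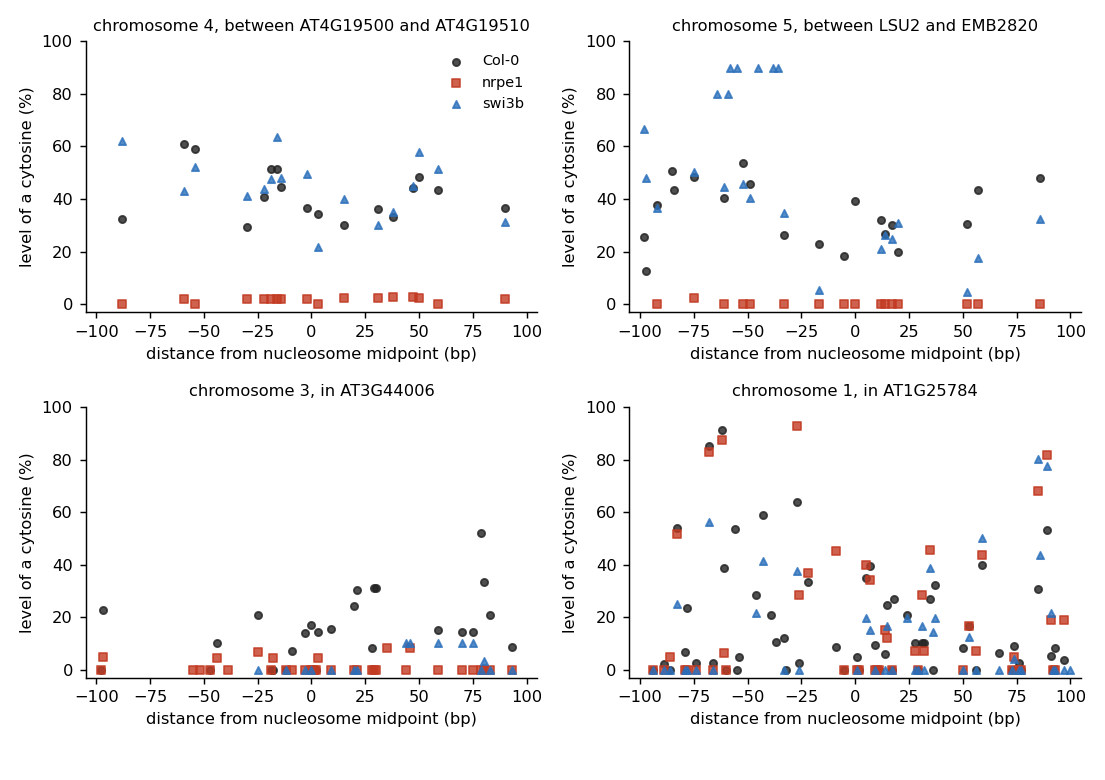
Methylation level (%) of each cytosine that had a level in the genotype, against distance from the nucleosome midpoint (bp), at the 3 nucleosomes with the highest Col-0 level and at the largest nrpe1 increase, all among nucleosomes with at least 10 shared cytosines. Circles are Col-0, squares nrpe1 and triangles swi3b. At the first nucleosome the nrpe1 cytosines reach at most 2.63% and those of Col-0 at least 29.5%, while at the pseudogene AT1G25784 the genotypes overlap.

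The other 5 nucleosomes that overlap a Pol V nucleosome did not share this pattern as a group. The one at chr5:19439943-19440142, between the thalianol pathway genes CYP705A5 and CYP708A2, had 12.6% in Col-0, 0 in nrpe1 and 7.97% in swi3b over 7 cytosines. The one at chr1:13260303-13260502, between PUM10 and AT1G35780, had 40.0% over 2 cytosines in Col-0 and 37.8% in swi3b, with no level in nrpe1. The nucleosome at chr1:10308203-10308402, between AT1G29460 and AT1G29465, was at 0 in Col-0 and nrpe1 and at 0.155% in swi3b. That at chr4:8345368-8345567, between the transcription factor gene NF-YB3 and the auxin repressor gene IAA14, was at 0 in every genotype and overlapped by only 26 bp. That at chr2:4360153-4360352, between AT2G11005 and AT2G11010, had no cytosine with a level in all 3 genotypes.

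H3 coverage over the nucleosomes was uneven. The tables give fragments over each base without normalization. Over all bases of the windows, mean coverage ran from 2.86 in met1-3 to 11.2 in drm2, and between 46.7% and 61.7% of bases had no fragment. Over the 326 nucleosomes the Col-0 mean was 4.48 fragments per base and the median 0.368, and 139 (42.6%) had no fragment. The highest had 57.8. In bulk tissue, fewer cells with a nucleosome and a weaker recovery from each cell cannot be told apart.

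Coverage went with the gene context. The 209 nucleosomes in protein-coding genes had a Col-0 mean of 6.19 (median 0.890), and 31.1% of them had no fragment. The 100 in no gene had a mean of 1.16 (median 0), and 67.0% had no fragment. The 12 in pseudogenes had a mean of 4.25 (median 1.99). By Col-0 methylation, the 24 nucleosomes with at least 5% had a mean H3 coverage of 5.31 and the 188 at 0 had 3.58. The 92 between these had 7.12, so coverage had no single direction with methylation, and 22 with no level had 0.310.

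Averaged over the 326 nucleosomes, H3 coverage in Col-0 rose locally at the listed position. The central 100 bp had 5.12 fragments per base and the 100 bp on each side of the nucleosome had 3.05, a ratio of 1.68. Single nucleosomes were divided, since the centre was higher at 102, the sides were higher at 123 and both were at 0 at 101. Among the 44 with a summed centre and side coverage of at least 20, the centre was higher at 31. Farther out, the mean was as high as at the centre, with 5.31 in the bin 490 bp from the midpoint toward higher coordinates and 5.30 in the bin next to the midpoint. The rise is thus one above the adjacent bases only.

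The same local rise was seen in drm2 and met1-3, and not in cmt3. In drm2 windows, Col-0 had a centre mean of 5.49 and a side mean of 3.17 (ratio 1.73), and drm2 had 5.94 and 4.01 (1.48). In met1 windows, Col-0 had 4.37 at the centre and 2.66 at the sides, and met1-3 had 4.84 and 2.96, a ratio of 1.64 in each. In cmt3 windows, with 11 nucleosomes, Col-0 had 4.56 and 4.31, and cmt3 had 3.01 and 3.20, so neither rose clearly at the centre.

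**Figure D4:**
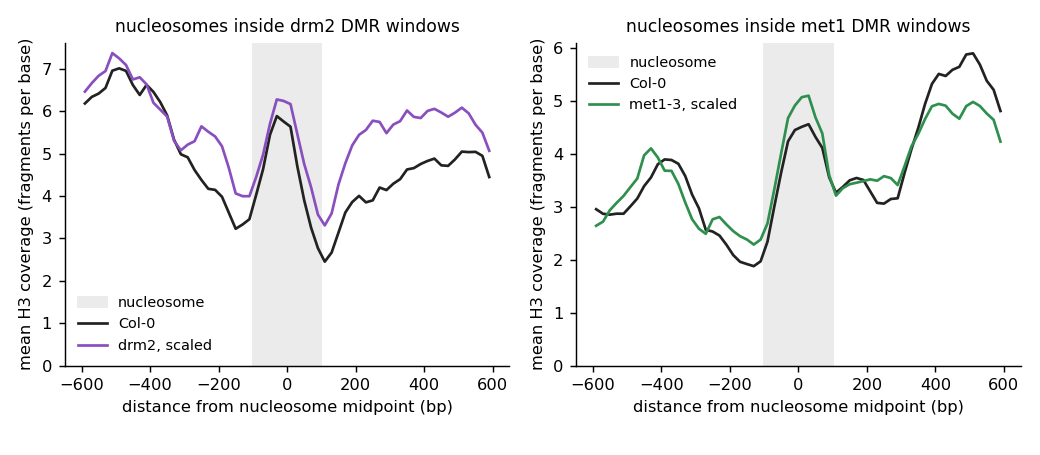
Mean H3 coverage (fragments per base) in bins of 20 bp against distance from the nucleosome midpoint (bp) for the 171 nucleosomes in drm2 windows (left) and the 217 in met1 windows (right). Mutant coverage is scaled to Col-0, the grey band is the 200 bp nucleosome, and fewer nucleosomes have values toward the edges. Each line rises over the nucleosome above the bases next to it, and coverage some 500 bp away is as high or higher, except in met1-3, where 5.09 over the nucleosome stands beside at most 4.98 farther out.

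For the comparison with each mutant, its coverage was divided by its depth relative to Col-0 over the outermost positions on each side of its windows, and the log2 ratio was taken with 1 fragment per base added to both. The relative depth was 1.27 for drm2, 0.473 for met1-3 and 0.624 for cmt3. These ratios understate changes at low coverage. For rises, however, less than 1 fragment per base before scaling gives a log2 ratio of 1 in met1-3 and cmt3 where Col-0 has none.

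In drm2, H3 coverage of the nucleosomes showed no single direction. Over the 171 in drm2 windows the mean was 4.73 fragments per base in Col-0 and 5.24 in drm2, and the median log2 ratio was 0. Coverage was lower in drm2 at 60, higher at 60 and 0 in both at 51. A log2 ratio of -1 or less was found at 13 (7.60%). The same call was made at 8.88% of the central 200 bp of all drm2 windows, and at 5.02% of blocks of 200 bp centred 250 bp from the DMR. A ratio of 1 or more was found at 20 (11.7%), against 11.8% and 7.96%. Both shares are near this background, but drops were not equally possible. With 1 fragment added, a ratio of -1 or less cannot occur where Col-0 coverage is under 1. Coverage was under 1 at 94 of the 171 nucleosomes, 6693 of the 22166 window centres and 21359 of the 44332 blocks.

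The sign of the summed change differed between drm2 sets. In drm2 CHH windows, the 47 nucleosomes had means of 2.77 in Col-0 and 2.44 in drm2, with 14 lower, 10 higher and 23 at 0 in both, and the log2 ratio of the sums was -0.18. Over the central 200 bp of all 6480 drm2 CHH windows that ratio was -0.92. In drm2 CG windows, the 127 nucleosomes had 5.61 in Col-0 and 6.37 in drm2, with 47 lower and 51 higher, and the ratio of the sums was 0.18, against -0.26 over the central 200 bp of all 15257 drm2 CG windows. For the 21 nucleosomes with a midpoint in a drm2 DMR itself, the means were 9.15 and 8.64, with 9 lower and 10 higher.

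In met1-3, too, the nucleosomes went both ways. Over the 217 in met1 windows the mean was 3.88 fragments per base in Col-0 and 4.27 in met1-3, with a median log2 ratio of 0. Coverage was lower at 64, higher at 72 and 0 in both at 81. A log2 ratio of -1 or less was found at 10 (4.61%), against 19.2% of the central 200 bp of all met1 windows and 12.7% of the blocks 250 bp from the DMR. A ratio of 1 or more was found at 27 (12.4%), against 4.45% and 6.43%. Where Col-0 has no fragment, less than 1 met1-3 fragment per base before scaling is enough for such a ratio. Col-0 coverage was under 1, where a ratio of -1 or less cannot occur, at 145 of the 217 nucleosomes. The same held at 15998 of the 47915 window centres and 45481 of the 95830 blocks. The nucleosomes had lower Col-0 coverage than those windows, whose means were 14.8 at the centre and 9.61 in the blocks, and the part of coverage in these shares was not tested. The scale factor also bears on them, since the log2 ratio of summed coverage was 0.14 as scaled here and 0.52 with the outer positions of all windows as listed.

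In cmt3, 11 nucleosomes could be compared. The mean was 4.42 fragments per base in Col-0 and 2.84 in cmt3, and the median log2 ratio was 0, with 5 lower, 3 higher and 3 at 0 in both. A log2 ratio of -1 or less was found at 2 (18.2%, against 37.5% of the central 200 bp of cmt3 windows and 32.3% of the blocks). A ratio of 1 or more was found at 1 (9.09%, against 1.77% and 2.35%). Col-0 coverage was under 1, where a ratio of -1 or less cannot occur, at 5 of the 11 and at 867 of the 4904 window centres. The 3 in pseudogenes were all lower, with means of 5.19 in Col-0 and 1.48 in cmt3.

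**Figure D5:**
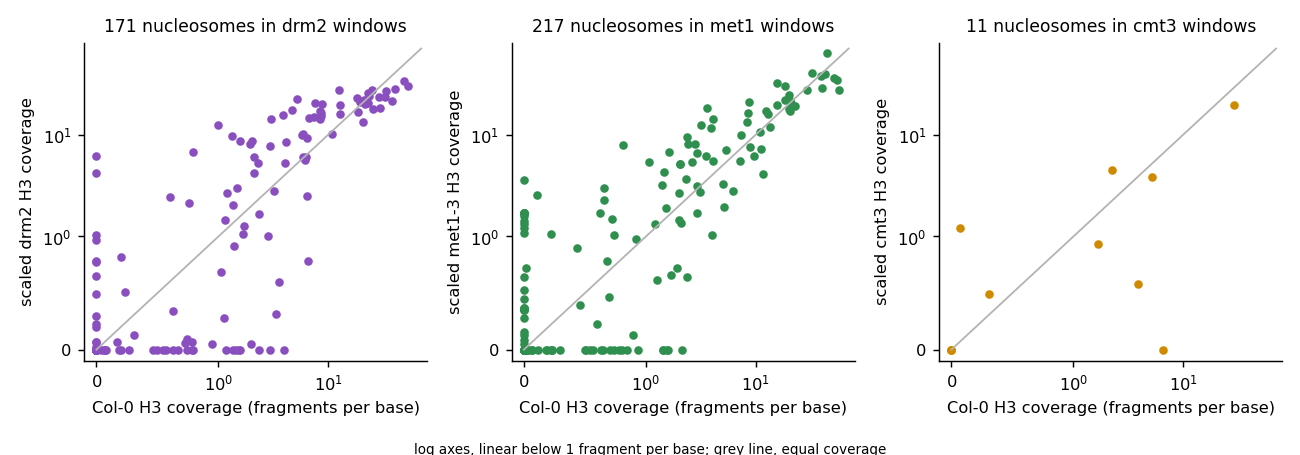
H3 coverage (fragments per base) of each nucleosome in drm2 (left), met1-3 (middle) and cmt3 (right), scaled, against Col-0. Axes are logarithmic above 1 fragment per base and linear below, a point is 1 nucleosome and the grey line marks equal coverage. Points lie on both sides of the line in each panel, and 60 of the 171 drm2 points are above it and 60 below.

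The largest drm2 decreases were taken among the 33 nucleosomes with a summed coverage of at least 20 in Col-0 and drm2. At chr5:9111083-9111282 in AT5G26090, Col-0 had a coverage of 53.4 and drm2 of 29.8 (log2 ratio -0.82). The drm2 share of the fragments at the midpoint was 40.6% (exact Clopper-Pearson 95% interval 32.0 to 49.7), where equal coverage would give 56.0%. At chr5:4397023-4397222 in PDAT, which encodes a phospholipid:diacylglycerol acyltransferase, coverage was 37.7 and 21.2 (-0.80), with a share of 43.4% (32.1 to 55.3). That interval ends below 56.0%, but holds the 54.6% of equal coverage with TMM scaling. At chr2:14596628-14596827 in AT2G34655, in a drm2 CHH DMR, it was 29.5 and 18.4 (-0.65), with a share of 45.8% (34.0 to 58.0), an interval that holds 56.0%. The intervals cover counting error only, since fragments carry no molecular identifiers. All nucleosomes named for H3, here and below, were picked as extremes on the same coverage, so the intervals do not test a change.

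The largest drm2 increases began from low Col-0 coverage, which follows in part from the choice. Both reached the minimum of summed coverage only through drm2. At chr1:359108-359307 in LAP6, a gene of pollen wall formation, Col-0 had a coverage of 5.24 and drm2 of 22.6 (1.92), with a drm2 share of 85.7% (69.7 to 95.2). At chr2:11429513-11429712 in AT2G26800 it was 4.64 and 17.4 (1.71), with a share of 83.8% (68.0 to 93.8). Both were in drm2 windows but in no DMR. Methylation was at most 0.0667% in Col-0 at both and 0 in nrpe1 and swi3b.

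In met1-3, 27 nucleosomes had a summed coverage of at least 20. The largest decrease was at chr5:17761103-17761302 in FLA13, which encodes a fasciclin-like arabinogalactan protein, with 57.8 in Col-0 and 27.4 in met1-3 (-1.05). The met1-3 share at the midpoint was 18.6% (11.4 to 27.7), below the 32.1% of equal coverage. With TMM scaling equal coverage is a share of 27.2%, which that interval holds. At chr4:1258583-1258782 in AT4G02820, coverage was 55.0 and 34.8 (-0.65), and at chr2:16130463-16130662 in LP1, a lipid transfer protein gene, it was 51.9 and 36.1 (-0.51). The shares there were 22.3% (14.4 to 32.1) and 22.2% (13.3 to 33.6), so the second interval holds 32.1% and the first ends at it. These nucleosomes had at most 0.0172% methylation in Col-0.

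The largest met1-3 increase was at chr4:10537013-10537212 between AT4G19260 and AT4G19270, in a met1 CHH DMR, with 3.62 in Col-0 and 18.2 in met1-3 (2.05). The midpoint held 5 fragments in Col-0 and 11 in met1-3, a share of 68.8% (41.3 to 89.0). This nucleosome was methylated at 12.2% in Col-0, 6.63% in nrpe1 and 7.40% in swi3b over 12 cytosines. At chr5:19587358-19587557 in RUG2, a gene needed for leaf development, coverage was 8.59 and 20.8 (1.18), with a share of 60.0% (36.1 to 80.9) and no methylation in any genotype. Both met1-3 increases reached the summed minimum of 20 only through met1-3, so their low Col-0 coverage follows in part from the choice. In cmt3, 1 nucleosome reached a summed coverage of 20. It lay at chr2:17894273-17894472 in PAO2, a polyamine oxidase gene, with 28.8 in Col-0 and 19.7 in cmt3 (-0.53) and a share of 30.2% (17.2 to 46.1), an interval that holds the 38.4% of equal coverage. Its log2 ratio was 0.14 with TMM scaling.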

How the data were processed

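Methylation was deposited by the authors as a fraction between 0 and 1 per position over each nucleosome and 500 bp on either side, and is printed in percent. H3 values are coverage, a signal deposited by the authors as whole numbers of fragments per position without normalization, at 1099 positions of a 1100 bp window. The position was taken to start at the window start, which leaves an uncertainty of 1 base. Nucleosomes are the intervals of the deposited methylation tables. The submitters' processing notes name Bowtie2, Picard, Bismark, methylKit and TAIR10. Their roles, the DMR calling, the coverage minimum and the cytosine context are not given in the sources used here, so CG, CHG and CHH refer to the DMR sets and not to single cytosines.

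The authors' tables hold 1 value for both replicates of a genotype, so groups follow the genotype of the table and no test was made. The members and lists were chosen with earlier results of these data known. A level needed 1 cytosine, and an H3 value 50 measured bases. Named nucleosomes with methylation values had at least 10 cytosines shared by all 3 genotypes, and were the 4 highest in Col-0 and the 3 largest decreases and 2 largest increases in each mutant. Named nucleosomes with H3 values had at least 100 measured bases and a summed coverage of at least 20, with the 3 largest decreases and 2 largest increases per mutant. Every Pol V overlap was also named. The nucleosome with the highest Col-0 level over all its cytosines was added after its value was seen. Alternatives were other widths, minimums, summaries, pseudocounts and scalings. The procedures were tested on simulated data. Python 3.11.15, numpy 2.4.6, pandas 2.3.3, scipy 1.17.1 and matplotlib 3.10.9 were used.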

Additional observations from a re-analysis of the deposited data

How the results depend on the processing

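No paired analysis was possible because the deposited tables combine both replicates of each genotype, and for the same reason no replicate could be left out. For the main comparisons, spread means the SD over the 5 chromosomes. Of 80 recomputed values for the main comparisons, 64 moved by less than that spread. For H3 this count says little. The drm2 and met1-3 medians stayed at exactly 0 in most settings, with 51 of 171 and 81 of 217 nucleosomes at 0 in both genotypes. In cmt3, with 11 nucleosomes, the spread of 0.94 was larger than any change of the value. As a median over nucleosomes, the nrpe1 and swi3b differences and the difference inside minus outside were each 0, since most nucleosomes are at 0. Over the whole 1200 bp the inside minus outside difference was 2.46 points. The median H3 log2 ratio of 0 in drm2 became 0.0507 at a Col-0 coverage of at least 5 (40 nucleosomes) and 0.38 at a summed coverage of at least 10 (48). As a mean it was 0.0711 and as a ratio of sums 0.15. In met1-3 the values were -0.0675 (36 nucleosomes), 0.25 (40), 0.11 and 0.14 in the same order. Scalings added after seeing the data gave ratios of sums of 0.28 (drm2) and 0.52 (met1-3) with the outer positions of all windows as listed, and 0.0848 and 0.21 without bases of 200 or more fragments. Among single nucleosomes, the nrpe1 increase in AT1G25784 was -0.0567 points over the whole 1200 bp, and the cmt3 decrease in PAO2 was 0.14 with TMM scaling. Of the other recomputed values of single nucleosomes, 99 moved by less than their own spread and 6 by more without a change of direction. That spread is the SD of the difference over the cytosines of the nucleosome, or for H3 the distance from the middle to the end of the counting interval on the log2 scale. Read depth per cytosine was not used here, and the many nucleosomes without fragments limit what H3 can show.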
